A study of Mus musculus with 7 samples.

Results

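Dextran sulfate sodium (DSS) is a detergent-like polymer that, given in drinking water, injures the epithelium of the mouse colon and causes colitis. The colon of DSS-treated mice was set against the colon of control mice on Affymetrix arrays, with all 5 colon arrays of a series of 7 chosen by the labelled tissue and treatment. Of the 3 DSS arrays, 2 held colon of Atg4b knockout (KO) and 1 colon of wild-type (WT) mice given DSS for 7 days and then water for 3 days. The 2 control arrays came from 1 KO and 1 WT colon labelled as control. All mice were 3 months old and of the C57Bl6/129Sv strain, and the KO mice lacked Atg4b, a protease that processes the LC3 and GABARAP proteins of autophagy. The series examined intestinal gene expression of Atg4b-deficient mice in chemically induced colitis, and control ileum filled its other 2 arrays. The values are deposited probe-set intensities, taken to log2 and reduced to 19938 genes, so that 1 log2 unit is a 2-fold difference. Where values are listed without further names, those of DSS colon are in the order KO replicate 1, KO replicate 2 and WT, and those of control colon in the order KO and WT.

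In an intact colon, a single layer of absorptive, mucus-secreting and hormone-secreting cells separates the gut contents from the immune cells of the wall and renews itself from crypts. When this layer breaks, bacterial products reach resident macrophages and the epithelium, which release interleukin-1, tumour necrosis factor and chemokines that call in neutrophils and monocytes. Interferons made in the wall switch on GTPases, antiviral proteins and antigen presentation through STAT and IRF transcription factors, and the mucosa then repairs itself by protease secretion, migration and division of crypt cells.

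Atg4b followed the genotype labels, with log2 intensities of 5.39 in both KO DSS arrays and 7.59 in the WT DSS array, against 5.45 in the KO and 7.35 in the WT control. The sex markers did not follow the labels in 2 of the 5 colon arrays, WT DSS (labelled male) and WT control (labelled female). Xist, the RNA of the inactive X chromosome, stood at 12.16 to 12.55 in the 3 DSS arrays and at 5.19 to 5.36 in the 2 controls. The Y-linked Eif2s3y stood at 4.28 to 4.39 in DSS arrays and at 9.39 to 9.56 in controls. Every DSS array thus had the female and every control colon the male pattern, so that measured sex and DSS treatment cannot be told apart for any gene in the results that follow. Labelled sex, a covariate in 1 alternative below, therefore does not adjust for measured sex. Beside condition and genotype it acts as a DSS by genotype term, because the label follows genotype one way in controls and the other way in DSS arrays. Of the 748 genes tested on chromosomes X and Y, 22 were higher (2.94%, against 7.2% of all genes tested) and 17 lower (2.27%, against 3.43%) in DSS colon.

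The 3 DSS arrays differed among themselves. The correlation of log2 values over all probe sets was 0.993 between KO DSS replicate 2 and WT DSS, 0.987 between the 2 KO DSS replicates and 0.982 between KO DSS replicate 1 and WT DSS. It was 0.986 between the 2 controls. KO DSS replicate 1 also lay nearest to the controls: over the genes higher in DSS colon its median distance from the control mean was 0.63 log2 units, against 0.80 for KO DSS replicate 2 and 0.88 for WT DSS. Over the lower genes these medians were -0.72, -0.85 and -0.94. Results that depend on one of these arrays are given with and without it.

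In DSS colon, interferon-induced genes, interleukin-1 and chemokines, antimicrobial proteins and neutrophil markers included members higher by up to 64.7-fold. Lower members were found among detoxifying enzymes (11 of 22 genes of conjugation, efflux and related enzymes and 5 of 22 P450s), ion transporters (6 of 21) and muscle markers (6 of 18). Limma called 1436 genes higher (7.2% of those tested) and 684 lower (3.43%) at a Benjamini-Hochberg adjusted p under 0.05. Of these, 453 higher and 262 lower genes differed by more than 2-fold, 116 and 39 by more than 4-fold, and 20 and 3 by more than 16-fold. These counts include the 4 measured sex markers, Xist on the higher side and Eif2s3y, Kdm5d and Uty on the lower. Xist is among the 20, and the 3 are Eif2s3y, Uty and Mptx1. All 3 DSS arrays lay above both controls for 22.1% of genes and below both for 18%. Each count of list members below is to be read beside these shares of all genes, 7.2% called higher and 3.43% called lower. Whole tissue was measured, so a lower value can mean fewer cells of a type or less RNA per cell, and these cannot be told apart. Single arrays mattered: without KO DSS replicate 1 the count was 3549 genes, against 800 without KO DSS replicate 2, 526 without WT DSS, 216 without the WT control and 183 without the KO control. Under quantile normalization 1267 genes were higher and 983 lower. For 1434 of the higher and all 684 lower genes every DSS array lay on one side of both controls, so leaving out an array can hardly change their direction. Of the 171 named genes called here whose DSS difference is given, 43 passed without the KO control, 51 without the WT control, 105 without WT DSS, 129 without KO DSS replicate 2 and all 171 without KO DSS replicate 1, each in the same direction.

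**Figure D1:**
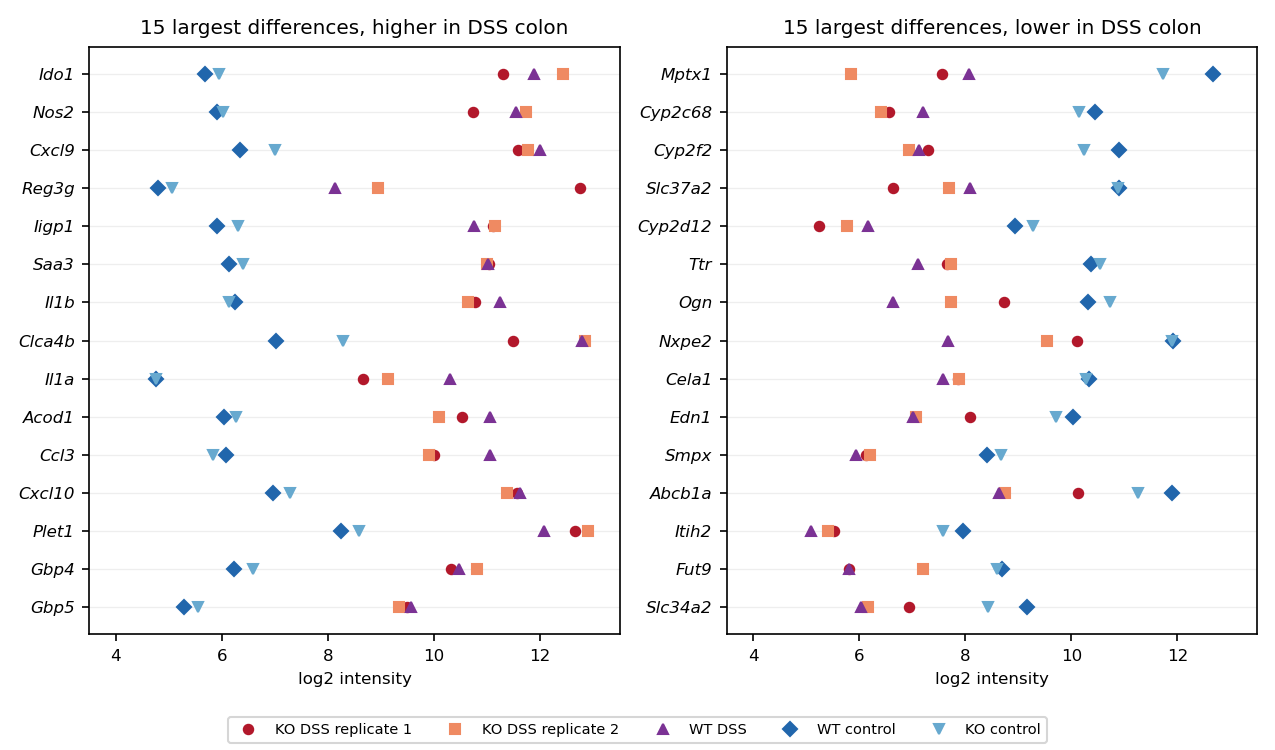
Log2 intensity of the 15 genes with the largest differences in each direction among genes ranked for naming, with sex markers left out. Each row is a gene and each point an array (red, orange and purple for DSS, blue for control colon). For each gene the 3 DSS points lie on one side of both control points, and Reg3g shows the widest spread among DSS points, with 12.75 in KO DSS replicate 1.

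Ido1, the interferon-induced enzyme that opens the tryptophan to kynurenine pathway, gave the largest difference of the genes ranked for naming. Sex markers were left out of that ranking, and Xist differed by more (7.07). Its log2 intensity was 11.31 and 12.43 in KO DSS and 11.88 in WT DSS colon, against 5.94 in KO and 5.67 in WT control colon (6.01 ± 0.33, SE, 3 against 2 arrays, limma adjusted p = 0.000578). The groups were more than 5 log2 units apart at their nearest arrays, the widest gap of all higher genes that the naming rule ranks. Of the 15 measured genes of tryptophan breakdown and aryl hydrocarbon receptor signalling, 2 were higher and 1 lower, with a median of 0.01. The other higher member was Wars, the tryptophanyl-tRNA synthetase, at 11.07, 11.42 and 11.17 in DSS against 9.71 and 9.70 in control colon (1.504 ± 0.13). Kynurenine aminotransferase Kyat1 was the lower one (-0.87 ± 0.21, adjusted p = 0.0472), and the downstream enzymes Kmo (0.70 ± 0.20, adjusted p = 0.0773) and Kynu (0.49 ± 0.17, adjusted p = 0.126) did not pass. Kyat1 did not pass without KO DSS replicate 2, WT DSS or the WT control, and 1 gene was higher without the KO control.

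Interferon-induced GTPases, which coat and disrupt the vacuoles of intracellular pathogens, were higher wherever the list had a measurement. Of 15 listed genes 7 were measured under a symbol of their own, and all 7 passed (100%, against 7.2% of all genes) with a median of 2.89. All 7 also had every DSS array above both controls, against 22.1% of all genes. Iigp1 read 11.11 and 11.15 in KO DSS and 10.74 in WT DSS colon, against 6.31 in KO and 5.90 in WT control (4.83 ± 0.10). Gbp5, which also promotes inflammasome assembly, read 9.49, 9.34 and 9.56 in DSS against 5.54 and 5.28 in control colon (4.05 ± 0.13). All 7 passed without any single colon array too. The other members ran from 2.54 ± 0.21 for Gbp7 to 4.10 ± 0.17 for Gbp4, so that the 3 DSS arrays gave nearly the same picture here, with list medians of 2.82, 3.13 and 2.87 above the control mean.

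The upstream part of interferon signalling followed. Of 16 measured members 13 were higher and none lower, with a median of 1.26. Ifng itself, the T and NK cell cytokine that induces many of these genes, stood at 7.08 and 6.94 in KO DSS and 8.19 in WT DSS colon against 5.64 and 5.63 in control colon (1.84 ± 0.31, adjusted p = 0.0183). The signal transducer Stat2 (2.00 ± 0.12), the transcription factors Irf1 (1.501 ± 0.12), Irf7 (1.32 ± 0.15) and Irf9 (1.21 ± 0.12), and the nucleic acid sensors Zbp1 (2.88 ± 0.20) and Dhx58 (1.91 ± 0.18) passed. So did 2 brakes on the pathway, the deconjugating enzyme Usp18 (3.25 ± 0.18) and Socs1 (1.75 ± 0.11). The receptor genes Ifngr1, Ifngr2 and Ifnar1, with values between -0.12 and 0.20, were the 3 that did not pass. With the KO control left out 5 of the 16 passed, and with the WT control left out 6.

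Of the antiviral effectors 16 of 17 were higher (94.1%, against 7.2% of all genes), with a median of 1.89. All 17 had the DSS arrays above both controls, against 22.1% of all genes. Ifit2, whose protein binds foreign RNA and blocks its translation, read 10.31, 10.41 and 9.90 in DSS against 6.33 in KO and 6.48 in WT control colon (3.77 ± 0.15). The oligoadenylate synthetases Oas2 (3.11 ± 0.16) and Oas3 (2.71 ± 0.21), and the related Ifit1 (2.89 ± 0.27) and Ifit3 (2.80 ± 0.18), were among the largest. In the 2 controls Ifit1 differed by more than 1 log2 unit, with 8.40 in KO and 6.84 in WT, but both stayed below the lowest DSS array at 10.33. Isg20, an exonuclease, was the member that did not pass (0.59). Without the KO control 8 of the 17 passed, and without the WT control 10.

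Promoter sequences of 4 of these interferon-induced genes are shown, because the members moved together and each window holds the interferon-stimulated response element that STAT and IRF complexes are known to bind. The element was searched on both strands as GAAA, any 2 bases and GAAA (on the other strand TTTC, any 2 bases and TTTC) in RefSeq promoter windows of 300 bases, 250 before and 50 after the start site, and the 250 bases before the start are printed. Capitals mark the element, sequences run 5′ to 3′ on the gene's strand, and coordinates are of GRCm38.p6. Gbp5 lies at chr3:142496684-142496933 (+), Ifit1 at chr19:34640639-34640888 (+), Gbp3 at chr3:142559794-142560043 (+) and Ifit3 at chr19:34583279-34583528 (+).
Gbp5: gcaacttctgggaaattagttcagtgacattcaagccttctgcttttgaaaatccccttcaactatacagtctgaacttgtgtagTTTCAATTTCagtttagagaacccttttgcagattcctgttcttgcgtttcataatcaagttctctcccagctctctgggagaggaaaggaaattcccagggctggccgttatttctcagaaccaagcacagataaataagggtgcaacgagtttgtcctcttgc
Ifit1: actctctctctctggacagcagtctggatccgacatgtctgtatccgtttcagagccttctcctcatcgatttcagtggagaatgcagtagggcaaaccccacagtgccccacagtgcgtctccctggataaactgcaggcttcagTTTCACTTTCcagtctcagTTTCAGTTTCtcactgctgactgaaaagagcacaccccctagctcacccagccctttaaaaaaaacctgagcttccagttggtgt
Gbp3: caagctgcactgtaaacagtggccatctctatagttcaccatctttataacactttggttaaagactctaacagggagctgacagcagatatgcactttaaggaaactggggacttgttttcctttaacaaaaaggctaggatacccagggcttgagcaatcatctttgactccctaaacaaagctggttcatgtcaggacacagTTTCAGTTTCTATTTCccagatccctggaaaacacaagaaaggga
Ifit3: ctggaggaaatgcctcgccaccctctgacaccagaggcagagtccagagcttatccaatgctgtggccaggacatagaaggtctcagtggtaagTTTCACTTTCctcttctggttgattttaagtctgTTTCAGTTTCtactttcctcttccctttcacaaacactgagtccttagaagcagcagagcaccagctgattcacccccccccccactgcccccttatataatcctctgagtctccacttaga

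In the Gbp5 window the element begins 165 bases before the start site. The Ifit1, Gbp3 and Ifit3 windows each hold 2 matches, the first of them 104, 45 and 156 bases before the start, and in Gbp3 the matches overlap. Of 39 interferon-list genes with a window, 18 hold the element. It was present in 4 of 5 windows of the GTPases (80%), 8 of 16 of the antiviral effectors (50%) and 4 of 16 of the signalling genes (25%), against 3.27% of the 19177 windows of all genes tested. Among the genes higher in DSS colon 6.62% of windows held it, and among those higher by more than 4-fold 19.1%, against 2.61% among the lower genes. The gamma-activated site TTCNNNGAA was in 9.62% of windows of higher genes, 5.36% of lower genes and 7.66% of all genes. The kappaB site, GGG, any 2 bases and TTTCC, was in 2.64%, 2.32% and 1.57% in the same order. A match of letters is a description of the window and not a bound site.

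Antigen presentation was higher at several steps. Of 12 measured genes of MHC class I loading and the immunoproteasome 10 were higher, with a median of 1.17. The peptide transporter Tap1 stood at 10.68, 11.06 and 10.92 in DSS colon against 8.16 in KO and 8.01 in WT control colon (2.79 ± 0.14). The catalytic immunoproteasome subunits Psmb8 (2.40 ± 0.25), Psmb9 (1.85 ± 0.19) and Psmb10 (1.40 ± 0.15) followed, while the class I light chain B2m (0.29) and the transactivator Nlrc5 (0.40 ± 0.14, adjusted p = 0.133) did not pass. Of 7 class II genes 6 were higher. These included their master regulator Ciita (1.14 ± 0.21), the peptide-exchange chain H2-DMa (1.41 ± 0.21) and the chains H2-Ab1 (0.96 ± 0.20) and H2-Aa (0.81 ± 0.17). The controls differed for class II, with a list mean of 9.60 in KO and 9.07 in WT, but stayed below the DSS range of 10.20 to 10.41. Of the class I genes, 5 passed without WT DSS, 3 without the WT control and 1 without the KO control. Of the class II genes, 2 passed without KO DSS replicate 2, and 0 without WT DSS or without either control.

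Among cytokines, the interleukin-1 pair led. Il1b, the pyrogenic cytokine released after inflammasome cleavage, read 10.77 and 10.64 in KO DSS and 11.25 in WT DSS colon, against 6.13 in KO and 6.24 in WT control colon (4.73 ± 0.17, adjusted p = 0.000139). Il1a, the alarmin of dying epithelium, read 8.67, 9.13 and 10.31 in DSS against 4.77 and 4.75 in control colon (4.65 ± 0.51). WT DSS was the highest array for both, and the groups did not overlap. Of 13 measured members of the family 6 were higher and none lower. The higher ones also included 2 proteins that hold the cytokines back, the decoy receptor Il1r2 (1.55 ± 0.20) and the interleukin-18 binding protein Il18bp (1.33 ± 0.18), and the adaptor Myd88 (1.03 ± 0.12). The receptor antagonist Il1rn (0.20 ± 0.11, adjusted p = 0.301) and Il18 (-0.16 ± 0.15, adjusted p = 0.576) did not pass and their arrays overlapped. Without either control 1 member of the family passed.

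Of 13 measured genes of the tumour necrosis factor and NF-kappaB group 10 were higher, with a median of 1.02. Tnf read 9.17, 9.49 and 9.92 in DSS against 6.94 in KO and 6.63 in WT control colon (2.76 ± 0.23). Its receptors Tnfrsf1b (2.11 ± 0.17) and Tnfrsf1a (1.04 ± 0.13), the adhesion molecules Icam1 (1.504 ± 0.18) and Vcam1 (1.02 ± 0.10), and the feedback inhibitors Nfkbia (0.96 ± 0.10) and Tnfaip3 (0.84 ± 0.12) passed. Without the WT control 5 of the group passed, and without the KO control 3. Of the 11 genes of interleukin-6 and its gp130 relatives 7 were higher and 1 lower. Socs3, the inhibitor that STAT3 induces, had 10.32, 9.98 and 9.88 in DSS against 7.49 and 6.97 in control colon (2.80 ± 0.17). Il6 (2.32 ± 0.31), Il11 (1.57 ± 0.21) and Osm (1.23 ± 0.19) with its receptor Osmr (1.79 ± 0.21) passed, and the receptor of leukaemia inhibitory factor, Lifr, was lower (-1.20 ± 0.17). In that group 2 genes were higher without the WT control and 1 without the KO control, and Lifr did not pass without WT DSS or without the WT control.

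The interleukin-17, interleukin-22 and interleukin-10 group differed in few members. Of 11 measured genes 2 were higher, the receptor chains Il10ra (1.00 ± 0.20) and Il17ra (0.52 ± 0.12), and Il22ra2, the soluble receptor that neutralises interleukin-22, was lower. Il22ra2 read 5.34, 5.18 and 5.23 in DSS against 6.26 in KO and 5.97 in WT control colon (-0.87 ± 0.13, adjusted p = 0.0118), low on every array. The cytokine genes of the list, Il17a (-0.07 ± 0.13), Il17f (0.39 ± 0.16), Il23a (0.24 ± 0.09), Il10 (0.21 ± 0.13) and Il12b (0.10 ± 0.19), did not pass. No member was higher without KO DSS replicate 2, WT DSS or either control, and Il22ra2 did not pass without WT DSS or either control.

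Chemokines that draw activated T cells and monocytes were the larger of 2 chemokine groups, with 10 of 19 members higher and none lower. The CXCR3 ligands Cxcl9 (11.58, 11.77 and 12.01 in DSS against 7.00 in KO and 6.34 in WT control colon, 5.09 ± 0.23), Cxcl10 (4.36 ± 0.17) and Cxcl11 (2.58 ± 0.24) and the macrophage inflammatory protein Ccl3 (4.41 ± 0.40) led. The monocyte chemoattractants Ccl2 (2.13 ± 0.20) and Ccl7 (2.17 ± 0.21) and their receptor Ccr2 (1.01 ± 0.14) passed as well. The receptor of the first 3, Cxcr3, did not (-0.11). Of the neutrophil-attracting chemokines and receptors 4 of 7 were higher: Cxcl2 (3.76 ± 0.27), the epithelial Cxcl5 (2.70 ± 0.55), Cxcl1 (0.79 ± 0.14) and the receptor Cxcr2 (2.05 ± 0.25). Cxcl5 was uneven, with 6.503 in KO DSS replicate 1 against 8.44 and 8.35 in KO DSS replicate 2 and WT DSS, and 5.22 and 5.0045 in the controls. The count of 10 in the larger group was 4 without the WT control and 3 without the KO control, and the count of 4 in the smaller group was 2 without KO DSS replicate 2 or WT DSS and 1 without either control.

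Markers of infiltrating cells differed by cell type. Of 18 neutrophil markers 11 were higher and none lower, with a median of 1.63, and 2 passed without either control. Their mean log2 intensity was 7.12 to 7.59 in DSS and 5.94 to 6.11 in control colon. Clec4e, a receptor for damaged cells and fungi, read 7.49, 8.13 and 9.13 in DSS against 5.13 and 4.94 in control colon (3.28 ± 0.40), and the calprotectin subunits S100a9 (2.61 ± 0.28) and S100a8 (2.28 ± 0.18) and the granulocyte colony-stimulating factor receptor Csf3r (1.75 ± 0.19) passed. The genes of early granule proteins, Mpo (-0.09) and Elane (0.04), which are made in marrow precursors, did not. Of 17 macrophage and monocyte markers 10 were higher and 1 lower, with list means of 8.003 to 8.10 in DSS and 7.03 to 7.17 in control colon. Acod1, which makes itaconate in activated macrophages (4.45 ± 0.24), the Fc receptor Fcgr4 (2.35 ± 0.35) and the integrin Itgam (1.37 ± 0.12) were higher. Cx3cr1, the receptor of resident macrophages, was lower (-0.49), while the resident macrophage markers Mrc1 (-0.46), Adgre1 (0.18) and Cd163 (-0.13) did not pass. The macrophage count of 10 was 5 without KO DSS replicate 2, 3 without WT DSS and 2 without either control, and Cx3cr1 did not pass in these cases.

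Lymphocyte markers gave fewer calls. None of 17 T and NK cell markers passed in limma in either direction (1 at an unadjusted p under 0.05, and 0 with a variance trend and robust fit). Their mean was 6.37 to 6.56 in DSS and 6.28 to 6.31 in control colon, below the 7.33 that is the median of all gene values. On every colon array 3 of the 17 lay under the lower quartile of the genes, and 8 were left without dim genes. All 3 DSS arrays lay above both controls for 6 of the 17, against 22.1% of all genes, and below both for 0, against 18%. At such intensities a lack of calls does not show a lack of change. The largest value was that of granzyme Gzmb, at 6.37, 6.57 and 6.59 in DSS against 5.95 and 6.20 in control colon (0.44 ± 0.15, adjusted p = 0.129). Of 14 B and plasma cell markers 1 was higher and 2 lower. The joining chain Jchain, which links secreted IgA and IgM, stood at 9.99 and 10.12 in KO DSS and 9.4996 in WT DSS colon against 11.46 in KO and 11.11 in WT control colon (-1.46 ± 0.16). The plasma cell survival receptor Tnfrsf17 was lower too (-0.83 ± 0.11), and Prdm1, a transcription factor of plasma cells that is also made in other cells, was higher (1.70 ± 0.18). Of 13 mast cell and eosinophil markers 1 was higher (7.7%, near the 7.2% of all genes), the mucosal mast cell protease Mcpt2 (1.49 ± 0.34, adjusted p = 0.0433), and 8 of the 13 lay under the lower quartile of the genes on every colon array. The higher B and plasma cell markers numbered 2 without KO DSS replicate 1. Without either control no B cell, plasma cell, mast cell or eosinophil marker passed, and Mcpt2 did not pass without WT DSS. The part of cell numbers in the cytokine and chemokine differences was not tested.

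Epithelial defence genes gave some of the largest and some of the most uneven differences. Of 20 measured antimicrobial and acute-phase genes 8 were higher and 1 lower. Nos2, the inducible nitric oxide synthase, read 10.73, 11.73 and 11.55 in DSS against 6.02 in KO and 5.90 in WT control colon (5.46 ± 0.37), and the acute-phase protein Saa3 read 11.04, 11.01 and 11.01 in DSS against 6.40 and 6.13 in control colon (4.77 ± 0.20). The Saa3 values in the 3 DSS arrays lay within 0.04 log2 units of each other. The iron-binding lipocalin Lcn2 (3.56 ± 0.28), the phospholipase Pla2g2a (3.25 ± 0.48), the hydrogen peroxide-producing oxidase Duox2 (2.71 ± 0.41) with its maturation factor Duoxa2 (3.32 ± 0.53), and the protease inhibitor Slpi (2.02 ± 0.30) also passed. Reg4, a lectin of secretory cells, was lower, with 11.27 and 11.44 in KO DSS and 9.78 in WT DSS colon against 12.82 and 13.05 in control colon (-2.22 ± 0.37). The count of 8 was 3 without the WT control and 2 without the KO control, and Reg4 did not pass in either case.

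Of 15 inflammasome, caspase and gasdermin genes 7 were higher and none lower. The necroptosis kinase Ripk3 read 9.75, 10.39 and 10.32 in DSS against 7.81 in KO and 7.97 in WT control colon (2.31 ± 0.19), and its substrate Mlkl, which breaks the plasma membrane, gave 1.86 ± 0.19. The sensor Nlrp3 (1.73 ± 0.30), the lipopolysaccharide-binding caspase Casp4 (1.05 ± 0.10) and the pore-forming Gsdmd (0.94 ± 0.16) passed. Casp1, the protease that cleaves interleukin-1 beta, did not (0.29 ± 0.12, adjusted p = 0.193). Of 11 complement genes 5 were higher, led by C2 (1.39 ± 0.26) and C4b (1.19 ± 0.16), components of the C3 convertase. Without KO DSS replicate 2 or WT DSS 4 inflammasome genes were higher, without the WT control 2 and without the KO control 0, while the complement count was 2 without KO DSS replicate 2, 1 without WT DSS and 0 without either control.

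**Figure D2:**
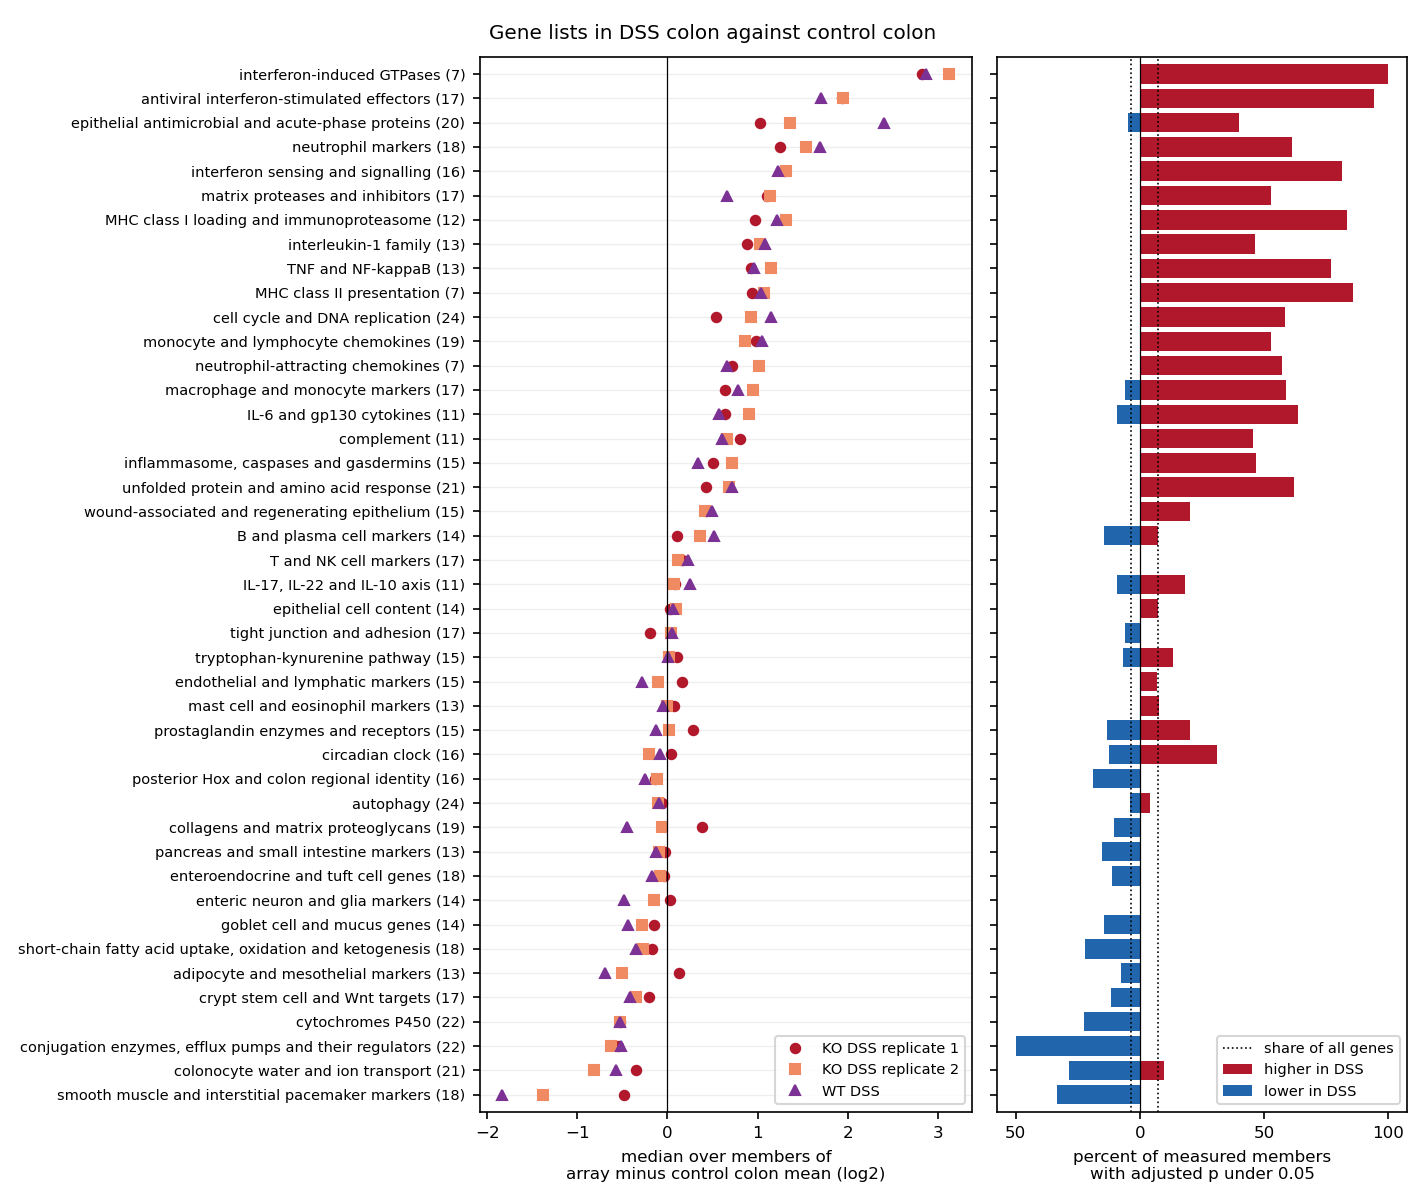
Left, the median over the measured members of each gene list of the log2 difference between each DSS array and the mean of both control arrays; right, the percent of members called higher (to the right) or lower (to the left) in DSS colon, with dotted lines at the 7.2% and 3.43% of all genes. Lists are ordered by their median, with the sex markers left out, and the number of measured members is in brackets. The 3 DSS arrays lie close together for the interferon lists and far apart for smooth muscle markers.

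Of 17 matrix proteases and inhibitors 9 were higher and none lower, with a median of 1.21. The collagenase Mmp13 read 9.78 and 9.74 in KO DSS and 10.23 in WT DSS colon against 6.44 in KO and 6.51 in WT control colon (3.44 ± 0.23). Without either control 3 of the 17 passed, and without the KO control the median was 0.71. The stromelysins Mmp10 (2.48 ± 0.28) and Mmp3 (2.47 ± 0.26), the inhibitor Timp1 (2.07 ± 0.19) and the urokinase receptor Plaur (2.07 ± 0.11) followed. Genes of the matrix itself gave other counts. Of 19 collagens and matrix proteoglycans none was higher and 2 were lower, the small leucine-rich proteoglycan Ogn (8.73, 7.73 and 6.64 in DSS against 10.73 and 10.32 in control colon, -2.97 ± 0.38) and periostin Postn (-1.70 ± 0.21). The fibrillar collagen genes Col1a1 (0.22 ± 0.16) and Col3a1 (-0.08) did not pass. The matrix count of 2 was 6 without KO DSS replicate 1 and 0 without either control, 5 with centred arrays or without dim genes, and 4 with labelled sex as a covariate.

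Of 15 genes of wound-associated and regenerating epithelium 3 were higher, the growth factor Ereg (2.15 ± 0.24), the cornified envelope protein Sprr1a (1.99 ± 0.23) and the annexin Anxa8 (1.76 ± 0.20). Plet1, a membrane protein of repairing colonic epithelium, gave a larger difference outside this list, with 12.66, 12.90 and 12.08 in DSS against 8.59 in KO and 8.24 in WT control colon (4.14 ± 0.46). Among prostaglandin genes, where 3 of 15 were higher and 2 lower, the inducible cyclooxygenase Ptgs2 was higher (2.44 ± 0.28) and the prostaglandin-degrading enzyme Hpgd lower (-1.02 ± 0.13). Hpgds, the synthase of prostaglandin D2 in blood-derived cells, was lower as well (-1.28 ± 0.14). Without either control 1 gene of regenerating epithelium was higher, and 5 without KO DSS replicate 1. For the prostaglandin list 4 were lower without KO DSS replicate 1 and 0 without either control, and 1 or 0 were higher without the WT or the KO control.

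Genes of growth and protein folding were higher with smaller differences. Of 24 cell cycle and replication genes 14 were higher and none lower, with a median of 0.90 and array medians of 0.54 and 0.93 in KO DSS and 1.15 in WT DSS. The ribonucleotide reductase subunit Rrm2 read 8.93, 9.64 and 9.88 in DSS against 7.89 and 7.78 in control colon (1.70 ± 0.25), and the replication licensing factor Mcm3 (1.40 ± 0.23), the survival and mitosis protein Birc5 (1.31 ± 0.17) and the cyclins Ccne1 (1.27 ± 0.26) and Ccnd1 (1.18 ± 0.20) passed. The widely used proliferation marker Mki67 (0.33) did not. The count of 14 depended on single arrays: it was 20 without KO DSS replicate 1, 3 without KO DSS replicate 2, 1 without WT DSS, 0 without the WT control and 1 without the KO control. With the 5 colon arrays alone it was 9. Of 21 genes of the unfolded protein and amino acid response 13 were higher and none lower. They included the chaperone Hspa5 (1.07 ± 0.11), its partners Creld2 (1.53 ± 0.19), Sdf2l1 (1.23 ± 0.16) and Hyou1 (1.22 ± 0.17), and the amino acid synthesis enzymes Asns (1.65 ± 0.16) and Psat1 (1.73 ± 0.26). Ddit3, the death-associated factor of that response, was at 0.11 and did not pass. This count of 13 was 8 without KO DSS replicate 2, 3 without WT DSS and 0 without either control.

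On the lower side were enzymes that process drugs and hormones. The list of 22 conjugating enzymes, efflux pumps and their regulators also holds carboxylesterases and monoamine oxidases, which do not conjugate. Of the 22 genes 11 were lower (50%, against 3.43% of all genes) and none higher. The efflux pump Abcb1a, which returns lipophilic compounds to the lumen, read 10.12 and 8.75 in KO DSS and 8.63 in WT DSS colon against 11.25 in KO and 11.90 in WT control colon (-2.44 ± 0.46, adjusted p = 0.0252). Monoamine oxidase Maob read 7.72, 7.57 and 7.70 in DSS against 9.77 and 9.65 in control colon (-2.08 ± 0.19). The sulfotransferases Sult1a1 (-1.89 ± 0.17) and Sult1c2 (-1.85 ± 0.42) and the glutathione transferases Gstm6 (-1.81 ± 0.24), Gstm1 (-1.55 ± 0.27), Gstm3 (-1.55 ± 0.24) and Gstt1 (-1.37 ± 0.19) were also lower. This count was 13 without KO DSS replicate 1, 5 without KO DSS replicate 2, 3 without WT DSS, 1 without the WT control and 2 without the KO control. The Gstm genes are close relatives, and probe sets may share signal between them. The receptors that regulate this program, Nr1i2 (-0.31) and Nr1i3 (-0.32), did not pass.

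Of 22 cytochromes P450 5 were lower and none higher. Cyp2c68 read 6.56 and 6.40 in KO DSS and 7.20 in WT DSS colon against 10.15 in KO and 10.45 in WT control colon (-3.59 ± 0.45), and Cyp2f2 read 7.30, 6.93 and 7.13 in DSS against 10.23 and 10.90 in control colon (-3.41 ± 0.19). Cyp2d12 (-3.33 ± 0.26), Cyp2d26 (-1.47 ± 0.29) and the sterol 27-hydroxylase Cyp27a1 (-1.09 ± 0.19) also passed. Families of P450 genes are closely related as well, so single names are less certain than the group. The count of 5 was 9 without KO DSS replicate 1, 3 without WT DSS or the KO control and 2 without the WT control, and 8 of 18 without dim genes. Of the genes ranked for naming, the largest fall was that of Mptx1, a pentraxin of the intestinal epithelium, with 7.56, 5.84 and 8.07 in DSS against 11.72 and 12.68 in control colon (-4.86 ± 0.47).

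Of 21 genes of colonocyte water and ion transport 6 were lower and 2 higher. The bicarbonate cotransporter Slc4a4 read 9.83, 9.83 and 9.56 in DSS against 11.03 in KO and 11.53 in WT control colon (-1.53 ± 0.18). The magnesium channel Trpm6 (-1.495 ± 0.32), the sulfate and chloride exchangers Slc26a2 (-1.21 ± 0.17) and Slc26a3 (-0.92 ± 0.16), carbonic anhydrase Car2 (-1.0002 ± 0.23) and the water channel Aqp8 (-0.96 ± 0.16) were lower. Another water channel, Aqp4 (0.80 ± 0.16), and the aldosterone-responsive kinase Sgk1 (0.80 ± 0.11) were higher. Of 18 genes of short-chain fatty acid uptake and oxidation 4 were lower: the butyrate transporters Slc5a8 (-0.89 ± 0.13) and Slc16a1 (-0.84 ± 0.13) and the oxidation enzymes Acadm (-0.91 ± 0.19) and Hadh (-0.63 ± 0.13). The lower transport genes numbered 10 without KO DSS replicate 1, 2 without KO DSS replicate 2, 3 without WT DSS and 1 without either control, and the 2 higher ones were 4, 1, 0 and 0 in the same order. The fatty acid genes numbered 2 without KO DSS replicate 2 and 0 without WT DSS or either control.

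Genes that mark epithelial cells in general were close to the controls. The mean of 14 such genes was 11.91 to 11.94 in DSS and 11.72 to 11.85 in control colon. Of them 1 was called, the surface keratin Krt20 (0.64 ± 0.11), a share of 7.1% that is near the 7.2% of all genes called higher. Epcam read 12.01, 12.08 and 11.96 in DSS against 11.99 and 12.11 in control colon. Of 17 tight junction and adhesion genes 1 was lower (5.9%, against 3.43% of all genes), occludin Ocln (-0.74 ± 0.14). Of 14 goblet cell genes 2 were lower, the secreted Clca1 (-0.98 ± 0.21) and the transcription factor Creb3l1 (-0.77 ± 0.11), while the mucin Muc2 stood at 0.07 and did not pass. Of 18 enteroendocrine and tuft cell genes 2 were lower, the granins Chga (-0.995 ± 0.13) and Chgb (-0.50 ± 0.11). Of 17 stem cell and Wnt genes 2 were lower, both of them feedback inhibitors of Wnt signalling, Axin2 (-0.73 ± 0.13) and Znrf3 (-0.72 ± 0.14). Lgr5, the stem cell marker, read 7.998, 6.67 and 6.33 in DSS against 7.76 and 8.76 in control colon (-1.31 ± 0.53, adjusted p = 0.182), and the groups overlapped. Without KO DSS replicate 1, 6 goblet, 4 enteroendocrine or tuft and 6 stem cell genes were lower. With KO DSS replicate 2 or WT DSS left out each list of this paragraph held at most 1 call, and without either control none of the genes of this paragraph passed. The epithelial count of 1 was 3 on the scale of log2(value + 16) and, with a variance trend and robust fit, 4 higher and 1 lower, and the goblet cell count of 2 was 4 with labelled sex as a covariate.

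Clock, regional identity and autophagy genes were counted too. Of 16 circadian clock genes 5 were higher and 2 lower. Nfil3 read 8.74, 8.47 and 8.33 in DSS against 6.60 in KO and 7.14 in WT control colon (1.66 ± 0.20), and the repressors Ciart (1.57 ± 0.32), Cry1 (1.25 ± 0.12), Per1 (0.99 ± 0.18) and Per2 (0.57 ± 0.12) were higher. The repressor Nr1d1 (-1.23 ± 0.29) and the activator Arntl (-0.52 ± 0.12) were lower. No source used here gives the time of day of sampling, and its part was not tested. Of 16 posterior Hox and regional identity genes 3 were lower: Hoxd10 (6.58, 7.37 and 6.68 in DSS against 8.86 and 9.63 in control colon, -2.35 ± 0.31), Hoxd11 (-1.71 ± 0.26) and Hoxd12 (-0.64 ± 0.12). Of 24 autophagy genes 1 was higher, Becn1 (0.43 ± 0.10), and 1 lower, Wipi1 (-0.82 ± 0.17), a share near that of all genes. The lower Hox genes numbered 5 without KO DSS replicate 1, where 3 autophagy genes passed each way. Without KO DSS replicate 2 or WT DSS, 2 clock genes were higher, none was lower and no autophagy gene passed, and without WT DSS 1 Hox gene was lower. Without either control no Hox or autophagy gene passed, and 1 clock gene was higher without the WT control and none without the KO control.

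Smooth muscle and pacemaker cell markers had the lowest list median after the sex markers (-3.93), -1.39, and 6 of 18 were lower (33.3%, against 3.43% of all genes). Desmin, Des, the intermediate filament of muscle, read 11.27 and 10.19 in KO DSS and 9.46 in WT DSS colon, against 12.18 in KO and 12.21 in WT control colon (-1.97 ± 0.43, adjusted p = 0.0377). The 2 control arrays agreed to within 0.04 log2 units, while the DSS arrays spread over more than 1. Ano1, the chloride channel of interstitial pacemaker cells, was lower evenly, with 9.67, 9.75 and 9.60 in DSS against 10.99 and 11.24 in control colon (-1.43 ± 0.12). Synm (-1.67 ± 0.37), Casq2 (-1.30 ± 0.14), Kcnmb1 (-1.35 ± 0.33) and Acta2 (-1.18) also passed, while Actg2 (-2.04 ± 0.54, adjusted p = 0.0636) and Myh11 (-1.67 ± 0.45, adjusted p = 0.0681) did not. Without KO DSS replicate 1 the count was 16 of 18, and without each other colon array it was 1 or 2. It was 13 with labelled sex as a covariate, which does not adjust for measured sex. It was 10 of 17 without dim genes, and 2 with the 5 colon arrays alone or on the scale of log2(value + 16).

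The list mean of muscle markers was 9.55 and 8.67 in KO DSS and 8.22 in WT DSS, against 10.02 in KO and 10.06 in WT control colon. The order of the DSS arrays is the one in which the called genes lie farther from the controls. Enteric neuron and glia markers, with 0 of 14 called (1 at an unadjusted p under 0.05, 0 with a variance trend and robust fit and 2 without KO DSS replicate 1), had means of 7.07, 6.77 and 6.37 in the same arrays, against 6.92 and 6.98 in controls. Endothelial markers, with 1 of 15 called (6.7%, near the 7.2% of all genes, the addressin Madcam1, 0.65 ± 0.15), had means of 7.79, 7.58 and 7.35 in DSS, against 7.55 and 7.63 in control colon. Adipocyte and mesothelial markers split the controls, with 7.45 in KO and 8.35 in WT, and had 8.02, 7.21 and 7.05 in DSS colon. Of the 13 genes in this list Pck1 was lower (-1.92 ± 0.45, adjusted p = 0.045). How much of the other lower genes goes with the amount of muscle or fat in a sample was not tested. Pck1 did not pass without KO DSS replicate 2, WT DSS or either control, nor Madcam1 without WT DSS or either control. Of 13 pancreas and small intestine markers 2 were lower, Cela1 (-2.55 ± 0.12) and Sycn (-1.26 ± 0.18), of which Sycn did not pass without either control, both at intensities above the median of all genes in control colon, whereas the pancreatic Cpa1, Cpb1 and Prss2 lay at 5.0 to 6.22 on every colon array.

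**Figure D3:**
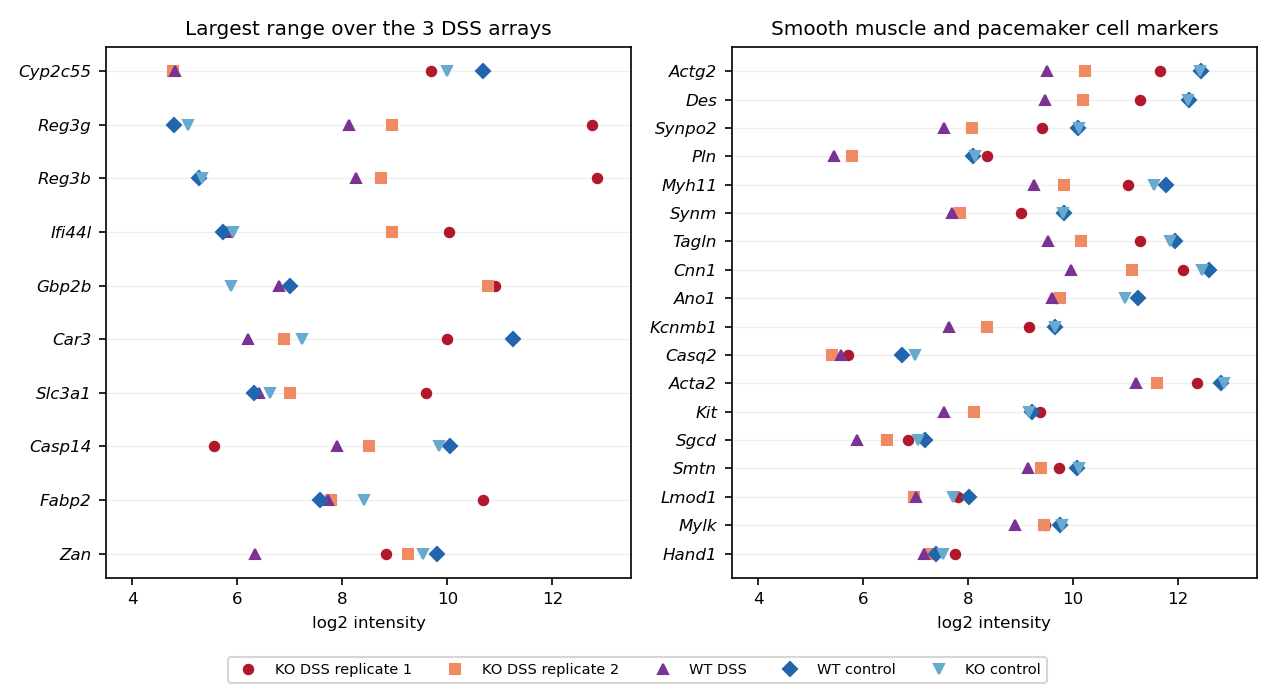
Log2 intensity on each of the 5 colon arrays (red, orange and purple for DSS, blue for control colon) of the 10 genes with the largest range over the DSS arrays (left) and of 18 smooth muscle and pacemaker cell markers (right). KO DSS replicate 1 stands alone among the DSS arrays for Cyp2c55, Reg3g, Reg3b, Car3, Slc3a1, Casp14 and Fabp2. WT DSS stands apart from both KO DSS arrays for Ifi44l, Gbp2b and Zan.

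In 594 genes the 3 DSS arrays spread over more than 1 log2 unit, and the 10 genes with the widest spread fell into 2 patterns. In the first, KO DSS replicate 1 stood alone. The P450 Cyp2c55 read 9.69 there and 4.78 and 4.81 in the other DSS arrays, with controls at 10.001 and 10.68, so that it lay more than 5 log2 units below the controls in 2 of the 3 DSS arrays. The antimicrobial lectins Reg3g (12.75, 8.95 and 8.13 in DSS against 5.06 and 4.80 in control colon) and Reg3b (12.85, 8.74 and 8.26 in DSS against 5.34 and 5.28 in control colon) were highest in the same array. Reg3g passed narrowly (4.84 ± 1.17, adjusted p = 0.0499) and Reg3b did not (4.48 ± 1.23, adjusted p = 0.069). The fatty acid binding protein Fabp2 (10.68, 7.78 and 7.73 in DSS against 8.42 and 7.58 in control colon) and the amino acid transporter subunit Slc3a1 (9.60, 7.01 and 6.41 in DSS against 6.63 and 6.32 in control colon), both known from absorptive enterocytes, were high in KO DSS replicate 1 and near the controls in the other DSS arrays. Car3 also stood alone in KO DSS replicate 1 (9.999, 6.89 and 6.21 in DSS), but its controls differed, with 7.23 in KO and 11.25 in WT.

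Genes of position along the gut also set that array apart. The distal gene Hoxb13 read 8.59 in KO DSS replicate 1 and 10.50 and 10.54 in the other DSS arrays, against 11.07 and 11.13 in control colon, and Hoxd13 read 6.64, 8.19 and 9.12 in DSS against 9.89 and 10.31 in control colon. The intestinal transcription factor Cdx2 was at 10.56 in that array, against 9.74 and 9.66 in the other DSS arrays and 9.28 and 9.47 in control colon. The part of the sampled stretch of colon in these differences was not tested. Without KO DSS replicate 1, 2178 genes were higher and 1371 lower, and 2077 of the 2120 genes called with all arrays were among them.

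In the second pattern the WT DSS array stood apart from both KO DSS arrays. Ifi44l, an interferon-induced gene, read 10.03 and 8.95 in KO DSS and 5.82 in WT DSS colon, against 5.92 in KO and 5.73 in WT control colon. The guanylate-binding protein Gbp2b read 10.91 and 10.77 in KO DSS and 6.79 in WT DSS, against 5.89 in KO and 7.00 in WT control colon. The WT DSS array was thus at the control level for both, while it lay with the KO DSS arrays for the GTPases above. Zan, which encodes the sperm protein zonadhesin, read 8.83 and 9.26 in KO DSS and 6.34 in WT DSS, against 9.54 in KO and 9.79 in WT control colon. None passed for DSS (adjusted p = 0.137 for Ifi44l, 0.147 for Gbp2b and 0.2 for Zan). A single WT DSS array cannot separate a genotype difference from a difference between mice.

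**Figure D4:**
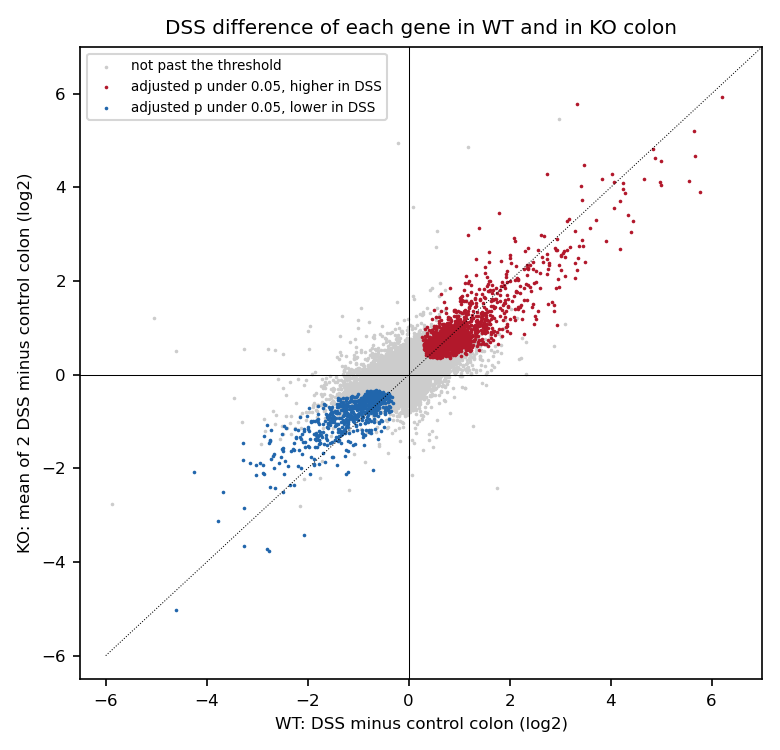
Log2 difference between DSS and control colon of each gene in WT (horizontal axis, 1 against 1 array) and in KO mice (vertical axis, mean of 2 arrays against 1), with genes called higher in red, genes called lower in blue and the 4 sex markers left out. Called genes lie along the dotted line of equal differences. The calling favours this position, because its fit gives both genotypes the same DSS difference and counts departures from it as spread. Grey genes far from the line include those in which a single array stands apart.

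The DSS difference was also taken within each genotype, as values with no test, since WT has 1 array a side. In WT, 701 genes were higher and 712 lower by more than 2-fold, and in KO 495 and 263. The 359 genes higher in both make up 51.2% of the WT and 72.5% of the KO list, and the 205 lower in both make up 28.8% and 78%. The WT and the KO difference come from separate arrays and had a correlation of r = 0.762 over genes, which are not independent replicates. The list median of the muscle markers was -1.84 in WT and -0.98 in KO, and that of the cell cycle genes 1.17 and 0.67. For the antiviral effectors it was 1.89 in WT and 1.90 in KO. By more than 2-fold, 6 genes differed in opposite directions. They were AI506816, Abhd1, Ccn1, Gm10044, the carbonic anhydrase Car3 (-5.04 in WT and 1.21 in KO) and the P450 Cyp2c65 (-1.95 in WT and 1.03 in KO). Car3 differed between the controls (7.23 in KO and 11.25 in WT), and Cyp2c65 between the KO DSS arrays (9.72 and 5.34).

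The difference of the DSS response between KO and WT was tested as an interaction term. In this fit the KO term was shared by control ileum and control colon, so the KO reference is not KO control colon alone. The term can therefore depart from the within-genotype differences above, even in sign. For Nos2 it was 0.23, with a DSS difference of 5.65 in WT and 5.21 in KO colon. In limma no gene passed an adjusted p of 0.05, the smallest being 0.571, and 639 of 19938 genes had an unadjusted p under 0.05. With a variance trend and robust fit 2 genes passed, 18 without KO DSS replicate 1 and 279 without KO DSS replicate 2, where a single residual degree of freedom is left. A gene called for DSS in one genotype and not in the other is therefore not shown to differ between them.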

How the data were processed

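RNA from mouse colon and ileum (RNeasy kit, biotin label) was read on Affymetrix arrays, 1 per sample, per the labels' protocols. The authors deposited one linear intensity per probe set and array (10.4 to 22236.4) by a summary and normalization not given in the sources used here. Array medians of 121.4 to 126.45 show that intensities had been made comparable, which hides any change common to every gene. The number of arrays limits the precision.

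The log2 of each deposited intensity was computed here. Of 35512 probe sets, 21789 had 1 gene symbol in the platform annotation, 1621 several and 12102 none here. The probe set with the highest mean stood for each gene, which left 19938 genes. Chromosomes and promoters came from RefSeq GRCm38.p6.

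Limma 3.58.1 (lmFit, eBayes, R 4.3.3) was fitted to all 7 arrays with genotype and condition (DSS colon, control colon or control ileum), leaving 3 residual degrees of freedom, and p-values were adjusted over all genes (threshold 0.05). ± is the standard error. Whether each array is from its own animal is not stated in the labels, and p-values measure the spread between these arrays alone. Only the KO DSS group held 2 arrays. The rest of the residual spread is departure from a genotype difference that is equal in control ileum, control colon and DSS colon. The p-values and standard errors rest on that assumption. On simulated data with 200 changed genes among 19938, 90% were recovered at a log2 change of 1 and 100% at 2 in this comparison. The simulated noise was independent for each gene and array, with no differences shared by many genes of an array. These shares therefore check the fit and do not give its power in the real data. Named genes are the 15 largest differences each way among called genes whose arrays did not overlap and whose brighter mean exceeded 7.33, the median of all gene values. Sex-linked markers, predicted genes, small RNAs and antigen receptor segments were left out. Also named are leading or role-defining members of 44 gene lists, the 10 widest ranges over DSS arrays and the largest gaps between groups. Genes named for moving in opposite directions in WT and KO were chosen after their values were seen. The members and lists were chosen with earlier results of these data known. Alternatives were the 5 colon arrays alone, no genotype term, labelled sex as a covariate, leaving out genes of chromosomes X and Y, quantile normalization, centring, log2 of the value plus 16, leaving out dim genes, all probe sets or their mean per gene, robust fitting with a variance trend, and leaving out each array. Versions were Python 3.11.15, pandas 2.3.3 and matplotlib 3.10.9.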

Additional observations from a re-analysis of the deposited data

Results flagged for a closer look

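Probe sets that carry no single gene symbol take no part in the comparisons above, but some of them differed. In the limma fit over all probe sets, 276 of 12102 probe sets with no symbol here were higher in DSS colon (2.28%) and 79 lower (0.653%), and 56 of 1621 with several symbols were higher (3.45%) and 24 lower (1.48%). Over all probe sets 3.4% were higher and 1.5% lower, and the shares above lie near or below these. On the higher side the largest differences among those with no symbol were those of probe set 10608681, at 9.10, 9.22 and 8.83 in DSS against 5.05 in KO and 4.91 in WT control colon, and 10502791, at 11.29, 10.89 and 10.19 in DSS against 7.45 and 6.63 in control colon. On the lower side 10608138 read 4.98, 5.05 and 5.19 in DSS against 8.58 and 8.99 in control colon. Probe sets with no symbol have no chromosome here, so sex-linked ones among them could not be left out. Measured sex and DSS treatment cannot be told apart for them either. No group held the 4 arrays needed to look for a single outlying array.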

How the results depend on the processing

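Without each array in turn the number of higher genes ran from 100 to 2178 and of lower genes from 60 to 1371, lowest without a control colon and highest without KO DSS replicate 1. Without either ileum array, or with the 5 colon arrays alone, 1117 were higher and 500 lower. Under the other alternatives both counts stayed within 1.5 times 1436 and 684. The lowest and highest totals among them were 1740 over all probe sets and 2250 under quantile normalization, which placed 56.3% of the calls on the higher side, against 67.7%. For a different DSS response in KO and WT, 0 genes passed, 2 with a variance trend and robust fit, and 18 to 279 without 1 KO DSS array, where the remaining KO DSS array is assumed to vary like the other groups.

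None of the 171 called genes with a printed difference changed direction under any alternative. This was largely fixed by the calling, since 1434 of the 1436 higher and all 684 lower genes had every DSS array on one side of both controls. Without each array, values near 0 that had not passed turned round. These log2 differences ran for Adgre1 from -0.0881 to 0.41, Col3a1 from -0.24 to 0.0473, Cxcr3 from -0.30 to 0.12, Ddit3 from -0.0203 to 0.21, Elane from -0.0022 to 0.10, Il12b from -0.18 to 0.45, Il17a from -0.26 to 0.15, Mpo from -0.31 to 0.18 and Muc2 from -0.16 to 0.28. No paired analysis was possible because the groups compared share fewer than 2 replicate numbers. Intensities below the lower quartile, as for Reg3g, Il1a, Il6 and Gbp5 in both controls, limit how large a difference can be measured. The cause of these dependencies was not tested.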
